A study of Mus musculus with 9 samples.

Results

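The cholesterol synthesis genes described here are 8 genes of the mouse sterol pathway, Srebf2, Insig1, Hmgcs1, Idi1, Fdps, Fdft1, Sqle and Lss, chosen by symbol from the 22851 genes of a heart count table. RNA was sequenced from 9 libraries of C57BL/6 mouse myocardium, 3 in each of 3 groups. The CK group was the normal control and, by the study's methods, received citrate buffer. The DCM group (diabetic cardiomyopathy) received a single injection of streptozotocin, a toxin of the insulin-producing beta cells, and was kept for 12 weeks. The SPM group received streptozotocin too, with spermine, a natural polyamine, at 1 mg/kg daily for 2 weeks before it and every other day for the 12 weeks after. All mice were male and 6 to 8 weeks old at the start. There was no group given spermine without streptozotocin, so spermine was only seen in diabetic mice. The methods speak both of 3 mice per group and of mixed samples of 6 hearts, and nothing in the sources settles whether a library was 1 mouse or a pool, so p-values measure the spread between libraries only.

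Cells make cholesterol from acetyl-CoA. Hmgcs1 condenses acetyl-CoA units to HMG-CoA, Idi1 isomerises the isoprene unit, Fdps joins isoprene units to farnesyl diphosphate, Fdft1 (squalene synthase) joins farnesyl diphosphate to squalene, Sqle oxidises squalene, and Lss closes the rings to lanosterol. Srebf2 encodes SREBP-2, the transcription factor that turns these genes on when membrane sterol is low, and Insig1, itself a target of the SREBP factors, holds the SREBP precursor in the endoplasmic reticulum when sterol is high. Heart muscle makes little cholesterol compared with liver, and the early steps of the pathway also serve the isoprenoid branches that feed ubiquinone and protein prenylation.

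Promoter sequence is shown for the regulator Srebf2, the early enzyme Hmgcs1 and the sterol sensor Insig1, because these genes are known to answer to SREBP-2 and 2 of them passed the test below. The windows are the bases upstream of both the RefSeq and the GENCODE start on GRCm38.p6, each on the plus strand, read 5′ to 3′, with capitals at matches to TCACNCCA (a core of the sterol regulatory element, reverse TGGNGTGA) and to CCAAT (the box bound by NF-Y, reverse ATTGG). Srebf2 is at chr15:82147019-82147180, Hmgcs1 at chr13:119690101-119690350 and Insig1 at chr5:28071162-28071362.
Srebf2: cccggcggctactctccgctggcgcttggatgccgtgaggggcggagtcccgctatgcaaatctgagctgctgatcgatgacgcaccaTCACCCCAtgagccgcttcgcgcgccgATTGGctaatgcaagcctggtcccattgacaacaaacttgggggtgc
Hmgcs1: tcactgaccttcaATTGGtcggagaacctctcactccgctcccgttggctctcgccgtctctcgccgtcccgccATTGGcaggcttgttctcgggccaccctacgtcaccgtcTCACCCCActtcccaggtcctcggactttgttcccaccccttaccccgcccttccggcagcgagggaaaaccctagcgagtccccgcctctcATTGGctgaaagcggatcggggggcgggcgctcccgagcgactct
Insig1: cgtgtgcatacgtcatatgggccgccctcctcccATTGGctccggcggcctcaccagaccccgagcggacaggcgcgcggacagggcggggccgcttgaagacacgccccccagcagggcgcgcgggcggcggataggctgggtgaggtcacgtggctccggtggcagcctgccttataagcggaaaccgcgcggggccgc
TCACNCCA stood in Srebf2 from base 162 to 155 before the RefSeq start and in Hmgcs1 from base 137 to 130, and in 3.67% of all 32851 RefSeq windows of 250 bases. CCAAT, on either strand, stood in the full 250-base RefSeq windows of all 5 members that the table held (Srebf2, Insig1, Hmgcs1, Idi1 and Lss) and in 33.8% of all windows. Both Idi1 matches, at bases 45 to 41 and 14 to 10 before its RefSeq start, lie inside the gene as GENCODE draws it. Fdps, Fdft1 and Sqle had no window. A match describes letters and is no evidence of binding in these hearts.

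Each library held 29901300 to 39718680 counts, and mitochondrial genes took 13.7% to 18.9% of them in CK and DCM libraries, and 21.0% to 21.1% in those of SPM. The labelled extraction text speaks of retinas. All 8 measured markers of cardiomyocytes of 10 listed (led by Myh6, Mb and Myl2) reached 1 CPM (counts scaled to library size) in every library. They summed to 53747 to 60979 CPM over the CK and DCM libraries and to 46078 to 50856 over those of SPM, and the 4 measured erythroid markers of 5 listed, none at 0 in every library, to 1330 to 3621 and 759 to 1295 CPM, so both lists were lower in every SPM library than in any other library, and their part in the SPM results was not tested. The 8 measured retina markers of 10 listed summed to 17.2 to 23.6 CPM with none at 0 in every library. The 6 measured fibroblast markers of 7 listed, none at 0, summed to 1970 to 2063 CPM in the CK libraries, 1333 to 1423 in those of DCM and 1588 to 1649 in those of SPM, highest in CK as Srebf2 and Insig1 were, and their part in those results was not tested. The 9 macrophage markers summed to 736 to 972 CPM in the CK libraries, 616 to 725 in those of DCM and 732 to 1239 in those of SPM. This sum was lower in every DCM library than in any other library, and its part in the results was not tested. The 10 liver markers, none at 0 in every library, summed to 20.6 to 89.8 CPM in the CK libraries, 35.6 to 43.5 in those of DCM and 44.1 to 397.5 in those of SPM. Their part in the results was not tested. SPM replicate 2 lay between the other SPM libraries for 66.3% of 14909 genes, against 15.6% to 38.7% for any other library. Of 2656 genes without a count in SPM replicates 1 and 3 only 30, or 1.13%, had one in it, against 15.6% to 35.0% elsewhere. Calls from the main fits with SPM are therefore given with and without it. FPKM levels, SPM means and SDs (n = 3) and correlations over the 9 libraries keep it. Those SDs may understate the spread between independent libraries. Because the RNA came from heart tissue of many cell types, fewer cells of a type and less RNA per cell cannot be told apart.

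Levels of the members differed widely in heart RNA. FPKM divides by gene length and by library total, without the TMM scaling of CPM, so it is used here to compare members and not groups. On FPKM, Fdft1 was highest at 26.3 in CK, 30.7 in DCM and 23.1 in SPM. Below it stood Srebf2 at 13.5, 10.8 and 10.002 and Insig1 at 12.0, 8.67 and 8.81. Hmgcs1 followed at 4.15, 3.60 and 4.46 FPKM. Idi1 (0.807, 0.581 and 0.774) and Sqle (0.587, 0.554 and 0.834) then overlapped in every group, and Lss (0.154, 0.242 and 0.192) and Fdps (0.0104, 0.0134 and 0.0866) were lowest. Besides Idi1 and Sqle, only Srebf2 and Insig1 in CK had overlapping libraries among neighbours in this order. Ranked on median FPKM among all genes with counts, Fdft1 stood at percentile 91.7, Srebf2 at 81.6, Insig1 at 78.9, Hmgcs1 at 67.5, Idi1 at 48.7, Sqle at 47.7, Lss at 39.1 and Fdps at 22.3.

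**Figure D1:**
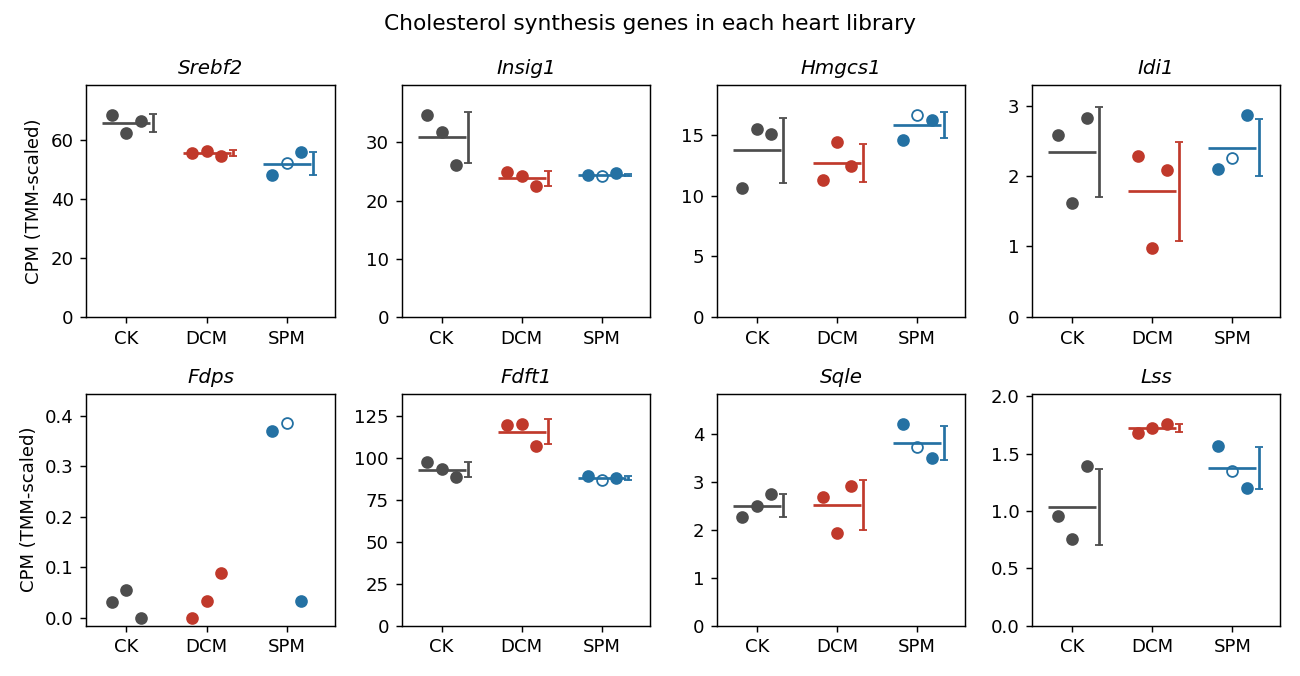
CPM after TMM scaling of the 8 members (vertical axes from 0, Fdps from just below it) in each of the 3 libraries of CK, DCM and SPM, with bars at the mean and SD except for Fdps, and SPM replicate 2 drawn hollow. Fdft1 is higher in every DCM library than in any other library, and Srebf2 and Insig1 are higher in every CK library than in any DCM or SPM library.

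Srebf2 (chr15:82147181-82205379 on GRCm38) was measured at 68.6, 62.5 and 66.6 CPM in CK replicates 1 to 3, 55.9, 56.5 and 54.6 in DCM and 48.1, 52.3 and 56.0 in SPM. Every CK library lay above every DCM and SPM library, and the DCM and SPM libraries overlapped. Srebf2 fell in DCM compared to CK by 0.24 on the log2 scale (SE 0.07, adjusted p = 0.0473 by the quasi-likelihood test of edgeR, Benjamini-Hochberg adjusted over all genes), from a mean of 65.9 ± 3.09 to 55.7 ± 0.985 CPM (SD, n = 3). This call was lost on leaving out any 1 of the 6 libraries, with adjusted p between 0.0737 and 0.136 by the same test. In SPM compared to CK it fell by 0.34 (SE 0.07, adjusted p = 0.0109 by edgeR's test), and without SPM replicate 2 the log2 fold change was -0.34 with an adjusted p of 0.0581. Srebf2 is rich in G and C (57.9% of its bases) and fold changes ran with GC content in both SPM comparisons (Spearman's rho over genes -0.50 for SPM compared to DCM and -0.37 for SPM compared to CK). After a correction for GC content the DCM to CK value was -0.27 with an adjusted p of 0.0124 by edgeR's test. The corrected SPM to CK value was -0.17 with an adjusted p of 0.0934 by the same test. SPM compared to DCM gave -0.10 (SE 0.07, adjusted p = 0.379 by edgeR's test), and -0.10 (adjusted p = 0.612) without SPM replicate 2.

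Insig1 (chr5:28071363-28078662), which retains the SREBP precursor, stood at 34.7, 31.8 and 26.0 CPM in CK, 24.9, 24.2 and 22.4 in DCM and 24.3, 24.2 and 24.6 in SPM. The lowest CK library lay above every other library, and CK replicate 3 was set apart from CK replicates 1 and 2. It fell in DCM compared to CK by 0.37 (SE 0.11, adjusted p = 0.0448 by edgeR's test), and the call held on leaving out CK replicate 3 (adjusted p = 0.00980) but not on leaving out any other library, where adjusted p lay between 0.0790 and 0.148. It fell in SPM compared to CK by 0.34 (SE 0.10, adjusted p = 0.0367 by edgeR's test; -0.34 and 0.125 without SPM replicate 2), and only the fit without CK replicate 3 kept this call on leaving out a library, with an adjusted p of 0.00968. SPM and DCM differed by 0.03 (SE 0.07, adjusted p = 0.790 by edgeR's test), and by 0.04 (adjusted p = 0.861) without SPM replicate 2. After the GC correction Insig1 was -0.37 (adjusted p = 0.0359 by edgeR's test) in DCM compared to CK. It was then -0.36 (0.0345) in SPM compared to CK, and -0.35 (0.126) with SPM replicate 2 also left out.

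Among the 7 members tested, 3 passed in DCM compared to CK, beside 10.4% of all 14402 genes tested, namely Srebf2 and Insig1 lower and Fdft1 higher. With so few members, 3 of 7 is a count and is not read as a share. None reached a fold change of 1.5, the limit for a differentially expressed gene (DEG), beside 4.34% of all genes, and 3 of 7 had an unadjusted p under 0.05 by edgeR's test, beside 24.6% of all genes. Libraries of the groups did not overlap for 4 of 7 members, these 3 and Lss, beside 29.3% of all genes.

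Fdft1 (chr14:63145150-63179578, minus strand) stood at 97.4, 93.4 and 88.3 CPM in CK, 119.5, 120.1 and 107.0 in DCM and 88.9, 86.9 and 87.8 in SPM. All DCM libraries lay above all others. It rose in DCM compared to CK by 0.31 (SE 0.07, adjusted p = 0.0187 by edgeR's quasi-likelihood test), from 93.0 ± 4.55 to 115.6 ± 7.42 CPM (SD, n = 3), and the call held only without CK replicate 1 (0.0173) or DCM replicate 3 (0.0186) among the libraries left out in turn, with adjusted p of 0.0624 to 0.0727 for the others. It fell in SPM compared to DCM by 0.40 (SE 0.07, adjusted p = 0.0111 by edgeR's test), to 87.9 ± 0.999 CPM, and was the only member past the test there, 1 of 7 beside 16.6% of all 14493 genes, with 0 DEG among the members (3.59% of all genes) and 3 at an unadjusted p under 0.05 (34.6% of all genes). Without SPM replicate 2 the value was -0.39 with an adjusted p of 0.0644, so 0 of 7 passed, beside 0.486% of all genes, with 2 at an unadjusted p under 0.05, beside 22% of all genes. The call was also lost without DCM replicate 2 (adjusted p = 0.0537 by edgeR's test). After the GC correction Fdft1 rose in DCM compared to CK by 0.32 (adjusted p = 0.00493 by edgeR's test). In SPM compared to DCM it then fell by 0.32 (0.0321), and by 0.31 (0.205) with SPM replicate 2 also left out. Both comparisons use the same DCM libraries, so the rise and fall are not independent of each other. SPM compared to CK gave -0.09 (SE 0.06, adjusted p = 0.294 by edgeR's test), and without SPM replicate 2 -0.08 (adjusted p = 0.577).

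Counts of Fdft1 are uncertain because 774 of its bases are also transcribed, on the other strand, in Ctsb (cathepsin B), and the counting is not stated to use strand. Ctsb counts ran from 15757 to 20842 a library. Ctsb was measured at 594.4 ± 36.1 CPM in CK, 525.6 ± 19.2 in DCM and 519.2 ± 5.91 in SPM (SD, n = 3). The part of this overlap in the Fdft1 values was not tested.

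Sqle, Lss and Hmgcs1 were lower in count. Sqle (chr15:59315077-59331192), squalene epoxidase, had 2.26, 2.51 and 2.76 CPM in CK, 2.69, 1.93 and 2.93 in DCM and 4.22, 3.73 and 3.52 in SPM (57 to 137 counts). All SPM libraries were above all others. Sqle rose in SPM compared to CK by 0.60 (SE 0.18, adjusted p = 0.0413 by edgeR's test), 1.52-fold, and was the only DEG among the members, beside 9.21% of all genes. The members past the test there were Sqle higher and Srebf2 and Insig1 lower, 3 of 7 beside 27.4% of all 14574 genes, and 3 of 7 did not overlap, with or without SPM replicate 2, beside 46.3% of all genes with it and 48.1% without. Leaving out any library took the Sqle call away, with adjusted p between 0.0501 and 0.150 by the same test. Without SPM replicate 2 it was 0.62 and 0.150, and no member then passed, beside 10.4% of all genes, with 3 at an unadjusted p under 0.05, beside 28.6% of all genes. SPM compared to DCM gave 0.60 (SE 0.21, adjusted p = 0.0720 by edgeR's test; 0.62 and 0.210 without SPM replicate 2), with libraries that did not overlap, and DCM compared to CK gave 0.01 (SE 0.25, adjusted p = 0.990). After the GC correction SPM compared to CK gave 0.60 (adjusted p = 0.0467 by edgeR's test), and 0.62 (0.166) with SPM replicate 2 also left out.

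Lss (chr10:76531588-76557138), lanosterol synthase, had 0.957, 0.754 and 1.40 CPM in CK, 1.68, 1.73 and 1.76 in DCM and 1.57, 1.35 and 1.20 in SPM, from 27 to 67 counts a library. The DCM libraries lay above all others. DCM compared to CK gave 0.74 (SE 0.34, adjusted p = 0.203 by edgeR's test), SPM compared to DCM -0.32 (SE 0.25, adjusted p = 0.384) and SPM compared to CK 0.41 (SE 0.32, adjusted p = 0.368), none past the threshold, and without SPM replicate 2 the latter values were -0.31 (0.641) and 0.42 (0.554).

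Hmgcs1 (chr13:119690379-119708260), HMG-CoA synthase, had 10.7, 15.5 and 15.2 CPM in CK, 11.3, 14.4 and 12.5 in DCM and 14.6, 16.7 and 16.3 in SPM. Every SPM library was above every DCM library and CK overlapped both. SPM compared to DCM gave 0.32 (SE 0.11, adjusted p = 0.0725 by edgeR's test; 0.28 and 0.262 without SPM replicate 2), 0.13 after GC correction (0.534). SPM compared to CK gave 0.19 (SE 0.14, adjusted p = 0.337; 0.16 and 0.579 without SPM replicate 2) and DCM compared to CK -0.12 (SE 0.15, adjusted p = 0.695). In SPM compared to DCM, 4 of 7 members did not overlap (Hmgcs1 and Sqle higher, Fdft1 and Lss lower), with or without SPM replicate 2, beside 39.2% of all genes with it and 41.4% without.

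Idi1 (chr13:8885501-8892451) had 2.58, 1.62 and 2.82 CPM in CK, 2.29, 0.982 and 2.08 in DCM and 2.09, 2.25 and 2.86 in SPM. Groups overlapped throughout and 29 to 91 counts stood behind each value. Its log2 fold changes were -0.38 (SE 0.35, adjusted p = 0.556 by edgeR's test) in DCM compared to CK, 0.42 (SE 0.31, 0.369) in SPM compared to DCM and 0.04 (SE 0.27, 0.933) in SPM compared to CK. Without SPM replicate 2 the latter values were 0.46 (0.499) and 0.08 (0.8998).

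Fdps (chr3:89093588-89101959, minus strand), farnesyl diphosphate synthase, was barely counted and was left out of the tests by the filter on low counts. It had 1, 2 and 0 counts in CK, 0, 1 and 3 in DCM and 12, 12 and 1 in SPM. All but 1 of its SPM counts came from SPM replicates 1 and 2. Without the filter its adjusted p was 0.939 in DCM compared to CK, 0.150 in SPM compared to DCM and 0.1001 in SPM compared to CK by edgeR's test. Its count is uncertain, because the gene shares 929 bases at 100% identity with the overlapping coding gene Gm43738, 1062 bases at 98.9% with the pseudogene Gm3571 and 1066 at 96.7% with Gm5873. Gm3571 had 18 to 45 counts a library, more than Fdps itself in each, and how the authors' counting dealt with such reads is not given in the sources used here. Whether these values reflect the level of its RNA was not tested. Of the others, Idi1 shares up to 684 bases with pseudogenes (0 to 1 counts where counted). Fdft1 also shares 1249 bases at 97.4% with the pseudogene Gm6781 (0 to 4 counts). Insig1 shares 189 bases with Gm37784, Hmgcs1 462 with Gm48342 and Lss 152 with 4930483K19Rik, while Sqle and Srebf2 share none that were found.

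**Figure D2:**
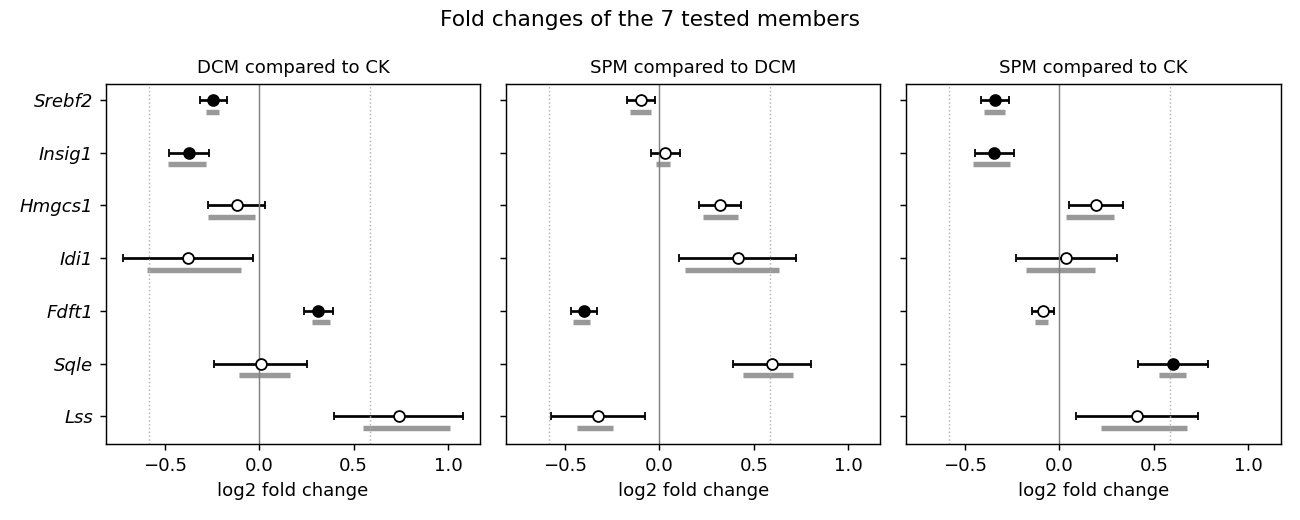
log2 fold changes of the 7 tested members (horizontal axis) in the 3 comparisons, with SE as whiskers, filled where adjusted p was under 0.05 by edgeR's test, and grey bars for the range on leaving out each library. Dotted lines mark a fold of 1.5. Filled points are Srebf2, Insig1 and Fdft1 in DCM compared to CK, Fdft1 in SPM compared to DCM, and Srebf2, Insig1 and Sqle in SPM compared to CK.

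The members moved in both directions. Their median log2 fold change was -0.12 in DCM compared to CK, 0.03 in SPM compared to DCM and 0.04 in SPM compared to CK, beside medians of -0.00, 0.01 and 0.00 over all genes. Over the 9 libraries, which share group effects and so are not independent, 7 of 21 pairs of tested members correlated above 0 and 14 below it, from -0.86 for Insig1 and Lss to 0.74 for Srebf2 and Insig1, with a median of -0.16. Within groups the Srebf2 and Insig1 value was 0.13 and the Insig1 and Lss value was -0.70. Insig1 and Fdft1 stood at -0.18 over the 9 libraries and at 0.81 within groups.

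**Figure D3:**
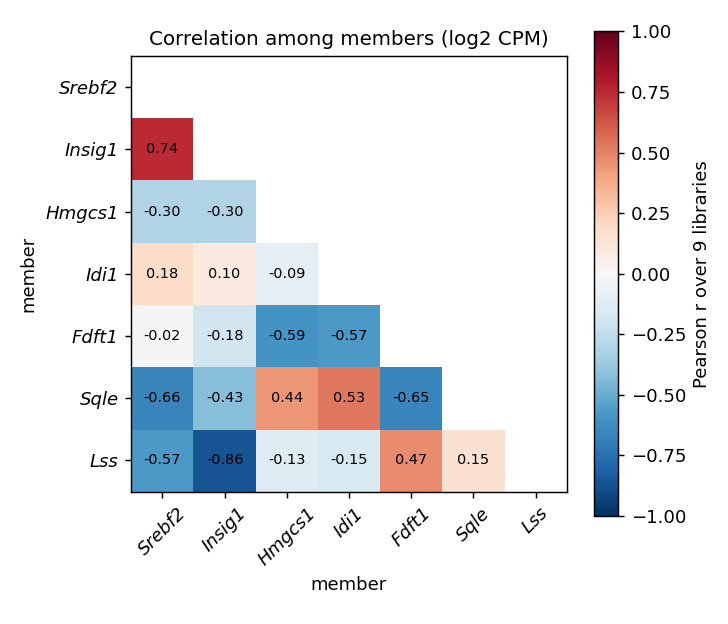
Pearson correlation of log2 CPM between each pair of the 7 tested members over the 9 libraries (color scale from -1 to 1, value printed in each cell). The strongest positive pair is Srebf2 and Insig1 at 0.74 and the strongest negative is Insig1 and Lss at -0.86.

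By likeness to the mean of the members, the nearest other genes were Golm1 (r = 0.957 over 9 libraries), Insc (0.932), Gtf2e2 (0.922), Pogk (0.922) and Pigw (0.879), and the gene nearest to a single member was Nos2 for Srebf2 (0.995), Kif22 for Insig1 (0.966), Gm45889 for Hmgcs1 (0.972), Pogk for Idi1 (0.950), Guk1 for Fdft1 (0.988), Hmgb1 for Sqle (0.995) and Nudt16 for Lss (0.962). These are the highest of all genes over few libraries, and none is read as related.

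Other enzymes of cholesterol synthesis, 13 of 14 listed being measured, are those between the members. Hsd17b7, the 3-ketosteroid reductase of the last steps, rose in DCM compared to CK by 0.43 (adjusted p = 0.0289 by edgeR's test) and Sc5d, the lathosterol oxidase, fell by 0.33 (adjusted p = 0.0421), from 13.4 ± 1.01 to 18.1 ± 1.96 CPM and from 20.7 ± 1.32 to 16.5 ± 0.391 (SD, n = 3). Each of these calls held in only 1 of 6 fits that left out a library, with adjusted p up to 0.127 and 0.157 by edgeR's test. In SPM compared to DCM, both rose, by 0.43 (0.0214) and 0.26 (0.0446). After the GC correction they stood at 0.27 (adjusted p = 0.158 by edgeR's test) and 0.07 (0.599), and Sc5d passed in 0 of 6 fits that left out a library. Without SPM replicate 2 none of the 13 passed in SPM compared to DCM, beside 0.486% of all genes. In SPM compared to CK, Hsd17b7 rose by 0.86 (adjusted p = 0.00107), 1.81-fold, and Pmvk (phosphomevalonate kinase) and Ebp (sterol isomerase) were among those that fell, by 0.53 (0.00406) and 0.41 (0.0100). Without SPM replicate 2, Hsd17b7 (0.00721) and Pmvk (0.0324) still passed, beside 10.4% of all genes. With all libraries, 1 of the 13 passed higher and 1 lower in DCM compared to CK, beside 10.4% of all genes. In SPM compared to DCM 2 passed, both higher, beside 16.6%. In SPM compared to CK 1 passed higher and 3 lower, beside 27.4%. The list's median was -0.20 in DCM compared to CK, with 10 of 13 below 0, -0.06 in SPM compared to DCM and -0.16 in SPM compared to CK. Medians over all genes were -0.00, 0.01 and 0.00.

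Of the SREBP control genes, 2 of 8 passed in SPM compared to DCM, both lower, beside 16.6% of all genes. In SPM compared to CK 1 of 8 passed, beside 27.4% of all genes. Scap, the escort of the SREBP precursor, fell by 0.34 in the former (adjusted p = 0.0270 by edgeR's test) and by 0.30 in the latter (0.0288). After the GC correction its values were -0.11 (0.378) and -0.10 (0.311). None of the 8 tested passed in DCM compared to CK, beside 10.4% of all genes. Without SPM replicate 2 none passed in either SPM comparison, beside 0.486% (SPM compared to DCM) and 10.4% (SPM compared to CK) of all genes. Of 14 isoprenoid genes, only Rabggtb passed in DCM compared to CK (0.26, 0.0442), higher, beside 10.4% of all genes. Only Zmpste24 passed in SPM compared to DCM (0.29, 0.0292), higher, beside 16.6%. In SPM compared to CK Ggps1 (0.31, 0.0416) and Zmpste24 (0.20, 0.0410) rose. Fnta (0.31, 0.0154) and Rce1 (0.35, 0.0258) fell there by the values given, so 4 of 14 passed, beside 27.4% of all genes. After the GC correction only Fnta of these passed in SPM compared to CK (-0.32, 0.0134), with Ggps1 at 0.03 (0.796), Zmpste24 at -0.05 (0.676) and Rce1 at -0.19 (0.154), and Zmpste24 was 0.02 (0.890) in SPM compared to DCM. Rabggtb held in 1 of 6 fits that left out a library. None of the 14 passed in SPM comparisons without SPM replicate 2, beside the same 0.486% and 10.4% of all genes.

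Among 12 genes of sterol efflux, storage and LXR, Mylip, the LXR-induced E3 ligase of lipoprotein receptors, rose in DCM compared to CK by 0.95 (adjusted p = 1.3e-05 by edgeR's test), from 52.1 ± 1.63 to 100.7 ± 6.04 CPM (SD, n = 3), and was 101.3 ± 8.58 in SPM (0.95 compared to CK, adjusted p = 0.000361; 0.00297 without SPM replicate 2). This was the largest change among these lists in DCM compared to CK, and it passed on leaving out each of the 6 libraries in turn in both comparisons. Both share the CK libraries. Each pair of comparisons shares the libraries of a group, so calls of the same gene in both, here and above, are not independent. Stard4, a sterol carrier and SREBP-2 target, fell in DCM compared to CK by 0.56 (0.0210) and rose in SPM compared to DCM by 0.46 (0.0376), from 15.1 ± 1.07 to 10.2 ± 1.77 and 14.1 ± 0.656 CPM. Nr1h2 (LXR-beta) fell by 0.34 (0.0146) and Scarb1 by 0.27 (0.0349) in SPM compared to DCM, and Nr1h2 by 0.29 (0.0163) in SPM compared to CK, where Lipa rose by 0.24 (0.0290). After the GC correction Nr1h2 was -0.08 (0.441) and -0.07 (0.404) in these comparisons, Lipa 0.04 (0.762), and in SPM compared to DCM Scarb1 was -0.28 (0.0510) and Stard4 0.31 (0.1500). The fall of Stard4 in DCM compared to CK held in 4 of 6 fits that left out a library, with adjusted p up to 0.0806. With all libraries, 1 of the 12 passed higher and 1 lower in DCM compared to CK, beside 10.4% of all genes. In SPM compared to DCM 1 passed higher and 2 lower, beside 16.6%. In SPM compared to CK 2 passed higher and 1 lower, beside 27.4%. Without SPM replicate 2 only Mylip passed among the 12 in SPM compared to CK, beside 10.4% of all genes. None of the 12 then passed in SPM compared to DCM, beside 0.486% of all genes.

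Of 10 fatty acid genes under SREBP, none passed in DCM compared to CK by edgeR's test, beside 10.4% of all genes. After the GC correction Fasn (-0.30, adjusted p = 0.0376 by edgeR's test) and Me1 (0.20, 0.0496) passed there, beside 1940 of all 14402 genes. Scd2, a stearoyl-CoA desaturase, rose by 0.36 (adjusted p = 0.0128) in SPM compared to DCM and by 0.51 (0.00119) in SPM compared to CK, from 31.4 ± 0.738 CPM in CK and 35.1 ± 1.303 in DCM to 45.02 ± 1.41 in SPM (SD, n = 3). In SPM compared to CK, Fasn (fatty acid synthase) fell by 0.47 (0.00358), Fads2 by 0.36 (0.0243) and Acss2 by 0.28 (0.0283). Of the 10, 1 passed in SPM compared to DCM, beside 16.6% of all genes. In SPM compared to CK 1 passed higher and 3 lower, beside 27.4%. There, after the GC correction, Fasn was -0.30 (0.0482) and Fads2 -0.25 (0.0916). Without SPM replicate 2, Scd2 (0.0124) and Fasn (0.0266) still passed in SPM compared to CK by edgeR's test, beside 10.4% of all genes. No gene of this list then passed in SPM compared to DCM, beside 0.486% of all genes.

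**Figure D4:**
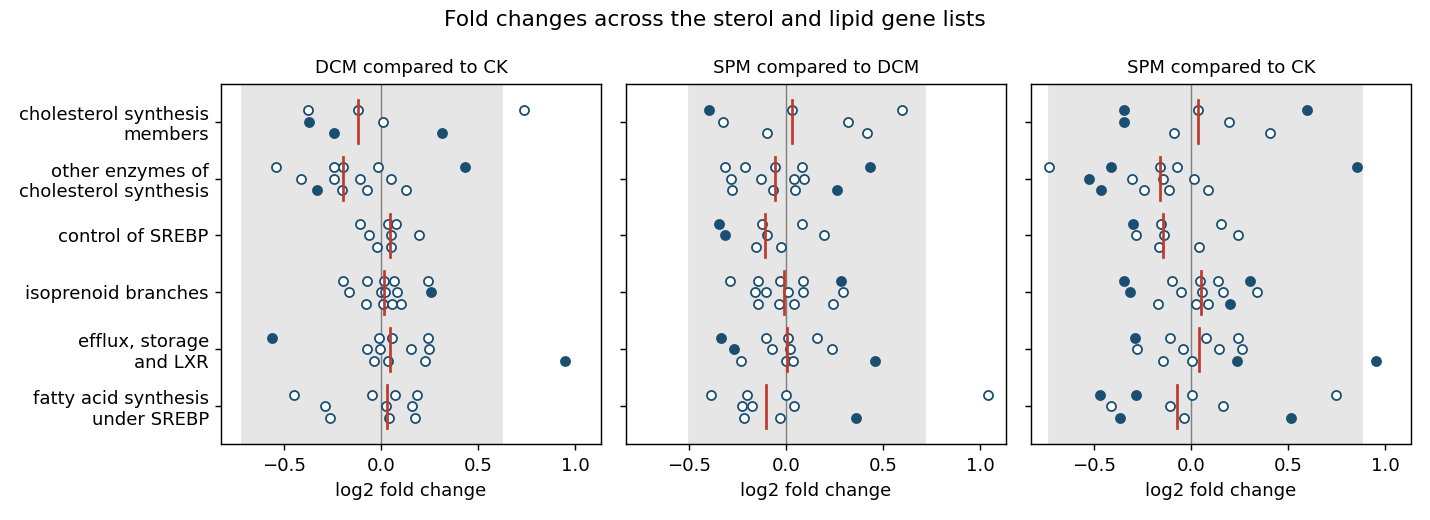
log2 fold change (horizontal axis) of every tested gene of the members and of each sterol or lipid list in the 3 comparisons, filled where adjusted p was under 0.05 by edgeR's test, with a red line at each list's median and grey shading from the 5th to the 95th percentile of all genes. Mylip lies at 0.95 in both comparisons with CK, and the members' medians of -0.12, 0.03 and 0.04 lie within the shading.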

How the data were processed

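Heart tissue RNA was sequenced in 9 libraries, 3 per group, by a TruSeq RNA kit. The authors filtered reads with fastp 0.18.0 and deposited whole-number counts per gene, and FPKM values that equal the deposited count over a single gene length and the total of that library (largest relative deviation 8.6e-13). Submitters' processing notes list Bowtie 0.12.2 and builds mm8 and mm9 with no role; neither counter nor annotation is named in those sources. Symbols and coordinates came from GENCODE M21 (22820 of 22851 genes named). Some genes of the pathway are not reported here. The members and lists were chosen with earlier results of these data known. Each comparison used its 6 libraries in edgeR 4.0.16 (R 4.3.3; filterByExpr, TMM, quasi-likelihood test, Benjamini-Hochberg over all genes), with calls at adjusted p under 0.05, and DEG also at a fold change of 1.5. SE is the log2 fold change over the square root of F. CPM values are TMM-scaled. Named genes are the 8 members, those past adjusted p in any list, and the genes most like the members. Alternatives were RLE, DESeq2 1.42.0, limma 3.58.1 on log2(FPKM + 0.1) and log2(FPKM + 1), other filters, all 9 libraries in a fit, a replicate block, a GC correction, omitting mitochondrial genes and leaving out each library. Omitting SPM replicate 2 with the GC correction was chosen after seeing the data. Shared sequence was found with blastn 2.17.0. The steps were tested on simulated data.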

Additional observations from a re-analysis of the deposited data

How the results depend on the processing

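Of 3 members past adjusted p in DCM compared to CK, 0 to 1 passed on leaving out a library. Passing members numbered 0 to 2 in SPM compared to DCM (1 with all libraries) and 0 to 2 in SPM compared to CK (3 with all). Without SPM replicate 3, 1 of the 2 was Fdps in both SPM comparisons. Apart from Fdps the most in SPM compared to DCM was 1. DEG among the members numbered 0 to 1 in SPM compared to DCM and 0 to 1 in SPM compared to CK on leaving out a library, where the 1 is Fdps without SPM replicate 3, which entered that fit through the SPM libraries where it is high and is not read as a result. SPM compared to DCM had 1 DEG, Fdft1, at a fold limit of 1.3. SPM compared to CK had 0 DEG without the low-count filter and under limma with a pseudocount of 0.1 or of 1. GC correction without SPM replicate 2 left 0 members past adjusted p in either SPM comparison and 0 DEG in SPM compared to CK. None of the 5 genes most like the members stayed first by Spearman's rho (0 of 5). The cause was not tested.

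A replicate block was tried, though same-numbered libraries correlated at only -0.0746 to 0.205 in their residuals and other pairs at -0.284 to 0.218, so the numbers do not pair the samples. With the block 2 members passed in SPM compared to DCM (Fdft1 and Hmgcs1, adjusted p = 0.0468 by edgeR's test) and 0 were DEG in SPM compared to CK, and Sqle in DCM compared to CK was -0.0085.

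Directions turned for genes that were not called and, for Zmpste24, called. Sqle in DCM compared to CK was -0.086 and -0.033 under limma and -0.11 to 0.16 on leaving out each library. GC correction gave Srebf2 in SPM compared to DCM 0.11 (0.11 also without SPM replicate 2), Fdft1 in SPM compared to CK 0.0032 (0.015 likewise), Zmpste24 in SPM compared to CK -0.0467 (-0.0492) and Idi1 in SPM compared to CK -0.18 (-0.13). Idi1 was also -0.034 and -0.022 under limma, and -0.18 to 0.19 on leaving out each library. Insig1 in SPM compared to DCM was -0.019 to 0.057.

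Over all genes, SPM compared to DCM had 2410 past adjusted p, against 72 without SPM replicate 2, 194 without DCM replicate 2, 751 without DCM replicate 1, 446 after GC correction and 0 with both GC correction and SPM replicate 2 left out (1996 at an unadjusted p under 0.05 by edgeR's test). DCM compared to CK had 1497, against 817, 866 and 966 without CK replicate 2, DCM replicate 2 and DCM replicate 3, and SPM compared to CK had 3989, against 1544 without SPM replicate 2. Calls split 761 higher and 736 lower in DCM compared to CK, but 479 and 1156 under limma on FPKM. The split was 1900 and 2089 against 1212 and 3244 in SPM compared to CK, and 1286 and 1124 against 744 and 1016 in SPM compared to DCM.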
